A study of Triticum aestivum with 4 samples.

Results

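The probe sets described here read transcripts of wheat flag leaves that are matched, in rice and Arabidopsis, to inhibitor and lipid transfer proteins. They were taken as every probe set of the sequence clusters that Ta.18186.1.A1_at (protease inhibitor and lipid transfer), Ta.18619.1.S1_s_at (potato inhibitor I type) and Ta.8814.1.A1_at (xylanase inhibitor) belong to, which gave 3 of 61290 probe sets, 1 for each cluster. The clusters were chosen on the UD-2 against WT values themselves, because these probe sets stand among the increased transcripts that the study listed from the same arrays. Their difference between the lines is therefore a description, and whether a fit calls it is no evidence for it.

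Potato inhibitor I proteins block serine proteases and, in potato and tomato, accumulate after wounding. Lipid transfer proteins are small, secreted, cysteine-rich proteins that bind lipids, and the family of Ta.18186.1.A1_at also takes in seed storage albumins and the cereal inhibitors of alpha-amylase and trypsin. Cereal xylanase inhibitors act on microbial enzymes that break down the xylan of plant cell walls. The Arabidopsis match of Ta.8814.1.A1_at is a relative of EDGP, an extracellular glycoprotein of carrot, and proteins of this kind have the fold of an aspartic protease.

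UD-2 plants came from event pPTN1034-NN569-3-5-1, in the T2 generation, of the spring wheat CB037, carrying a synthetic version of the maize transcription factor gene ZmDof1 behind the constitutive sugarcane promoter UBI4. The plasmid also holds an nptII selection cassette. WT plants were untransformed CB037. Both lines were grown side by side in a greenhouse with a 10/14 h photoperiod at 29°C by day and 24°C by night, and flag leaves were taken at anthesis with normal watering and fertilizer. Each line had 2 arrays, and each array held RNA pooled from 3 different plants. UD-2 is a single event, so that an effect of ZmDof1 cannot be told apart from one of the insertion site or of the transformation. The values are log2 signals, 1 for each probe set and array, that the authors made by robust multiarray average (RMA), and 1 unit is a doubling.

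The tissue label was set against marker probe sets first. The large subunit of Rubisco, the carbon-fixing enzyme of the chloroplast, read 14.56 and 14.56 in UD-2 and 14.54 and 14.57 in WT on TaAffx.128414.1.A1_x_at. This is the brightest of the leaf probe sets. The 31 probe sets for leaf proteins of photosynthesis were of 3 genes, and most of them read this same Rubisco subunit. Of the 31, 14 lay under the background level on every array, and 24 had a negative and 7 a positive log2 difference. The median log2 difference was −0.10, with a range from −0.47 to 0.38. By limma 0 were called (1 at an unadjusted p under 0.05, 0 with Benjamini-Hochberg adjustment), where 0.430% of all probe sets tested were called higher and 0.281% lower. Of 17 probe sets for storage proteins of the grain, 13 lay under the background level on every array, while the avenin-like Ta.27777.1.S1_at read 10.79 and 10.66 in UD-2 and 10.27 and 10.36 in WT. The background level of an array is the 95th percentile of its 42 Bacillus control probe sets, and it ran from 3.93 to 4.17. The reporter control RPTR-Ta-U57609-2_s_at read 11.22 and 10.70 in the UD-2 pools, against 4.62 and 5.47 in the WT pools, and what it reads is not stated by the sources. No probe set was annotated as ZmDof1, so that the transgene was not checked here.

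Ta.18186.1.A1_at is described by its rice match LTPL114, a precursor of the protease inhibitor, seed storage and lipid transfer family. Its log2 signal was 6.62 and 6.08 in the UD-2 pools, against 3.34 and 3.30 in the WT pools. Both UD-2 arrays lay above background, by 2.69 and 2.10, and both WT arrays lay below it, by a log2 difference of −0.83 and −0.85. The UD-2 mean was 6.35 ± 0.38 and the WT mean 3.32 ± 0.03 (SD over 2 pools each), a log2 difference of 3.03 with a standard error of 0.19. Standard errors are those of limma, which draws the spread of each probe set toward that of all probe sets. Since the WT signal is only a bound, the fold is given against the background level and was at least 4.57. In RNA of whole leaves, more cells with a transcript and more transcript per cell cannot be told apart.

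Ta.18619.1.S1_s_at, matched to the serine protease inhibitors of the potato inhibitor I type, was well above background in both lines. It read 10.27 and 9.62 in the UD-2 pools, against 7.21 and 6.69 in the WT pools. The UD-2 mean was 9.94 ± 0.46 and the WT mean 6.95 ± 0.37 (SD over 2 pools each). The log2 difference was 2.99 (standard error 0.27), or 7.96-fold. The suffix _s_at marks probes that match more than 1 transcript, so that the signal may be a sum over related wheat sequences.

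Ta.8814.1.A1_at is the xylanase inhibitor probe set. Its signal was 5.86 and 5.56 in the UD-2 pools, against 4.09 and 4.01 in the WT pools, with both WT arrays just under background, at −0.08 and −0.14 relative to it. The UD-2 mean was 5.71 ± 0.21 and the WT mean 4.05 ± 0.05 (SD over 2 pools each). The log2 difference was 1.66 (standard error 0.14), and the fold against background was at least 2.93. The plot of signals by array shows these values for each pool.

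**Figure D1:**
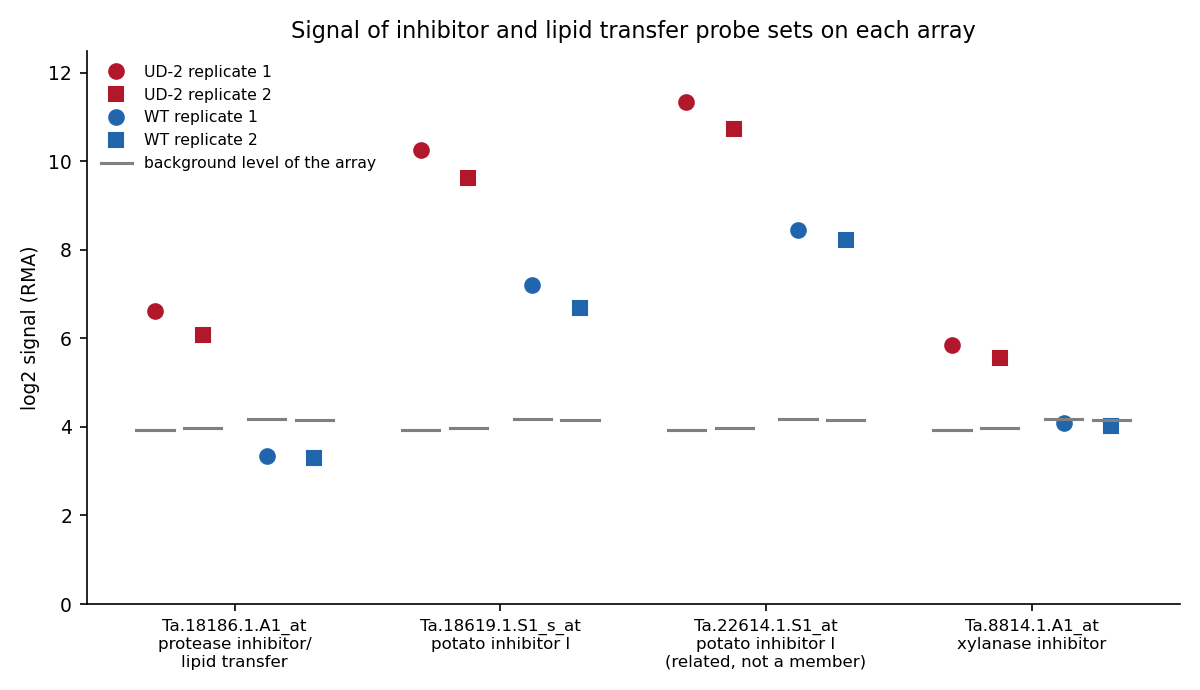
Log2 signal (RMA, vertical axis) of each pool, with UD-2 in red and WT in blue, for the 3 probe sets and for another one of the potato inhibitor I type, marked as related. Grey bars mark each array's background level, and the WT points of Ta.18186.1.A1_at and Ta.8814.1.A1_at lie below theirs while all UD-2 points lie above.

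Another probe set of the potato inhibitor I type, marked as related in the plot of signals by array, is outside these clusters. It has the same Arabidopsis description as Ta.18619.1.S1_s_at, and the study listed it among the increases as well. This second potato inhibitor I probe set read 11.34 and 10.73 in the UD-2 pools, against 8.44 and 8.22 in the WT pools, a log2 difference of 2.70 (standard error 0.22) or 6.51-fold. All 4 arrays were above background for both potato inhibitor I probe sets, so that their folds are measured on both sides. The log2 difference of Ta.18619.1.S1_s_at was larger by 0.29, about the size of either standard error. Whether their probes read related sequences was not tested, since the target sequences were not used here.

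On each of the 3 probe sets, both UD-2 pools lay above both WT pools, which was so for 22.2% of the 61115 probe sets that are not controls (both UD-2 pools lay below both WT pools on 25.9%). By the adjusted threshold of 0.05 in limma, all 3 were called higher in UD-2, as were 0.430% of all probe sets tested. Nothing can be read from these counts, because the study picked the probe sets on this same contrast. The median log2 difference over all probe sets was −0.02.

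The UD-2 pools stood further apart on these transcripts than on most. They were 0.54 apart on the log2 scale on Ta.18186.1.A1_at, 0.65 apart on Ta.18619.1.S1_s_at and 0.30 apart on Ta.8814.1.A1_at, while the median UD-2 gap over all probe sets was 0.15. These gaps stand at the percentiles 95.6, 97.7 and 80.3 of all probe sets. In WT the gap was large on Ta.18619.1.S1_s_at alone, at 0.52 or the percentile 96.0, and was 0.04 and 0.08 on the other two, whose WT signals were below background. The difference between the lines was 5.63, 4.61 and 5.51 times the larger gap between pools for the 3 probe sets in the order given. These ratios are a description, because the probe sets were picked on this contrast. For Ta.18186.1.A1_at and Ta.8814.1.A1_at they also rest on WT signals below background.

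The pools also ran in the same order on all 3. UD-2 replicate 1 was above UD-2 replicate 2, as it was on 48.9% of all probe sets and on 74.9% of the 263 called higher in UD-2. WT replicate 1 was above WT replicate 2 on all 3, which was so for 46.1% of all probe sets. The second potato inhibitor I probe set had the same order, with gaps of 0.61 in UD-2 and 0.22 in WT. Each array is a pool of different plants, and whether plants, pooling or array differ here was not tested.

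With 1 array left out, 1 line rests on a single pool, which is assumed to vary like the other line. The log2 difference then ran from 2.76 to 3.30 for Ta.18186.1.A1_at, from 2.67 to 3.32 for Ta.18619.1.S1_s_at and from 1.51 to 1.81 for Ta.8814.1.A1_at. The lowest values were those without UD-2 replicate 1 and the highest those without UD-2 replicate 2, for all 3. In each of these 4 fits, 0 probe sets of the whole table passed limma's adjusted threshold. Normalizing the arrays again by quantiles, by their medians or by cyclic loess moved the 3 differences by less than their standard errors.

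**Figure D2:**
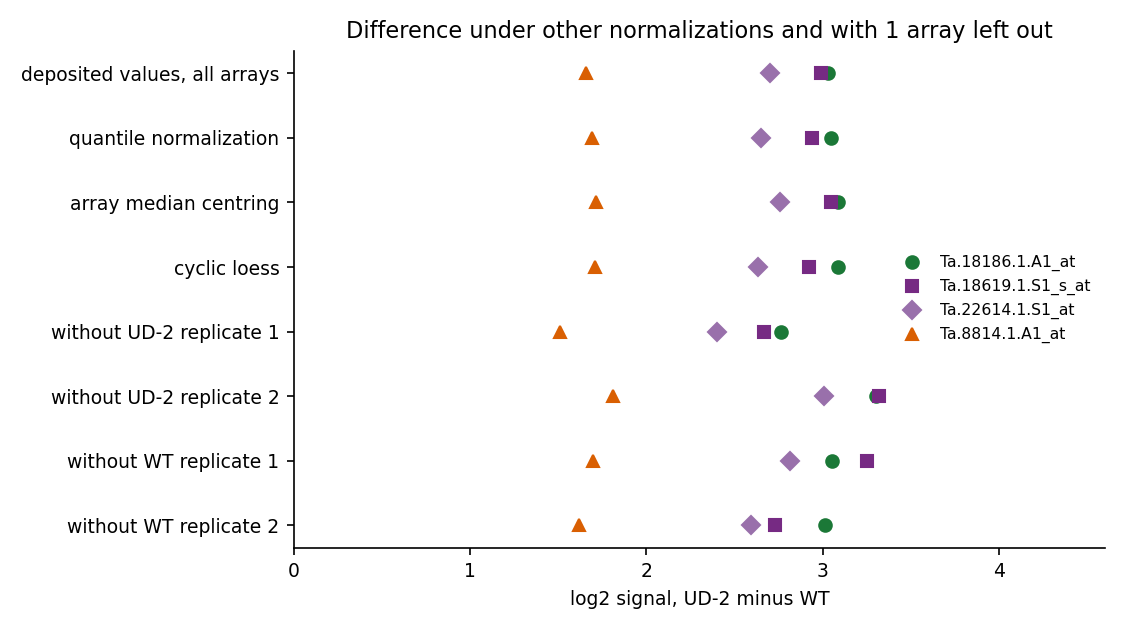
Log2 signal in UD-2 minus WT (horizontal axis) for the 3 probe sets and the second potato inhibitor I probe set, with the deposited values, after other normalizations, and with 1 array left out. Ta.8814.1.A1_at stays between 1.51 and 1.81 and the other members between 2.67 and 3.32.

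Other inhibitors and lipid transfer proteins were looked up in the platform annotation, in which 200 probe sets carry a name other than a locus number and the 3 members carry none. It gave 15 probe sets of 10 genes. None of the 15 was called in either direction by limma (adjusted p from 0.116 to 0.708), with 2 at an unadjusted p under 0.05 and 0 called with Benjamini-Hochberg adjustment. Over the whole table, 0.430% were called higher and 0.281% lower, so that 0 of 15 is near that background. Their median log2 difference was −0.02, the same as over all probe sets, and it ran from −0.03 to 0.06 under the alternatives that kept all 15. Leaving out probe sets under background on all arrays drops 8 of the 15, and the median of the rest was 0.07. Of the 15, 8 lay under the background level on every array, so that for them no level was measured in flag leaves.

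Among the probe sets counted as protease inhibitors, Ta.10170.1.S1_at is annotated wci, a name that the annotation does not expand. This probe set read 6.11 and 5.59 in UD-2 and 5.88 and 5.86 in WT. The WT pools lay between the UD-2 pools, and the log2 difference was −0.02 (adjusted p = 0.695 from limma, 95% interval −0.48 to 0.44). The other 5 probe sets are of serpins, which trap serine proteases and abound in the wheat grain. Ta.119.1.S1_x_at, for Serpin-Z2A, read 4.10 and 4.29 in UD-2, above background, and 3.89 and 3.89 in WT, below it (adjusted p = 0.205 from limma). The remaining 4 were under background on every array, among them Ta.1314.1.S1_at, for SER1 and SER3, at 3.81 and 3.55 in UD-2 and 3.51 and 3.38 in WT.

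XIP-I, a xylanase inhibitor of a class unlike the EDGP relatives, has 2 probe sets, and both were bright in all pools. Ta.1200.1.S1_at read 10.87 and 9.57 in UD-2 and 9.96 and 10.21 in WT, and Ta.1200.1.S1_x_at read 10.35 and 8.98 in UD-2 and 9.26 and 9.48 in WT. The WT pools lay between the UD-2 pools on both, and the gap of 1.31 and 1.37 between the UD-2 pools was at the percentile 99.8 of all probe sets for each. The log2 difference was 0.13 on Ta.1200.1.S1_at (95% interval −0.88 to 1.15) and 0.30 on Ta.1200.1.S1_x_at (95% interval −0.76 to 1.35). Neither passed the test (adjusted p = 0.643 and 0.547 from limma). UD-2 replicate 1 was the higher UD-2 pool here too.

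Among the lipid transfer proteins and their relatives, TaLTP3, a lipid transfer protein, has 2 probe sets. Ta.1282.1.S1_x_at, for TaLTP3, read 10.69 and 10.72 in the UD-2 pools, against 11.13 and 11.48 in the WT pools. The log2 difference of −0.60 (95% interval −0.97 to −0.23) did not pass the test over all probe sets (adjusted p = 0.116 from limma). The other TaLTP3 probe set, Ta.1282.4.S1_at, read 4.74 and 4.94 in UD-2 and 4.78 and 5.13 in WT, with overlapping lines. WMAI-1, an alpha-amylase inhibitor, read 5.67 and 5.80 in UD-2 and 5.60 and 5.73 in WT on Ta.1315.1.S1_at, and the 4 probe sets named ATI were under background on every array.

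**Figure D3:**
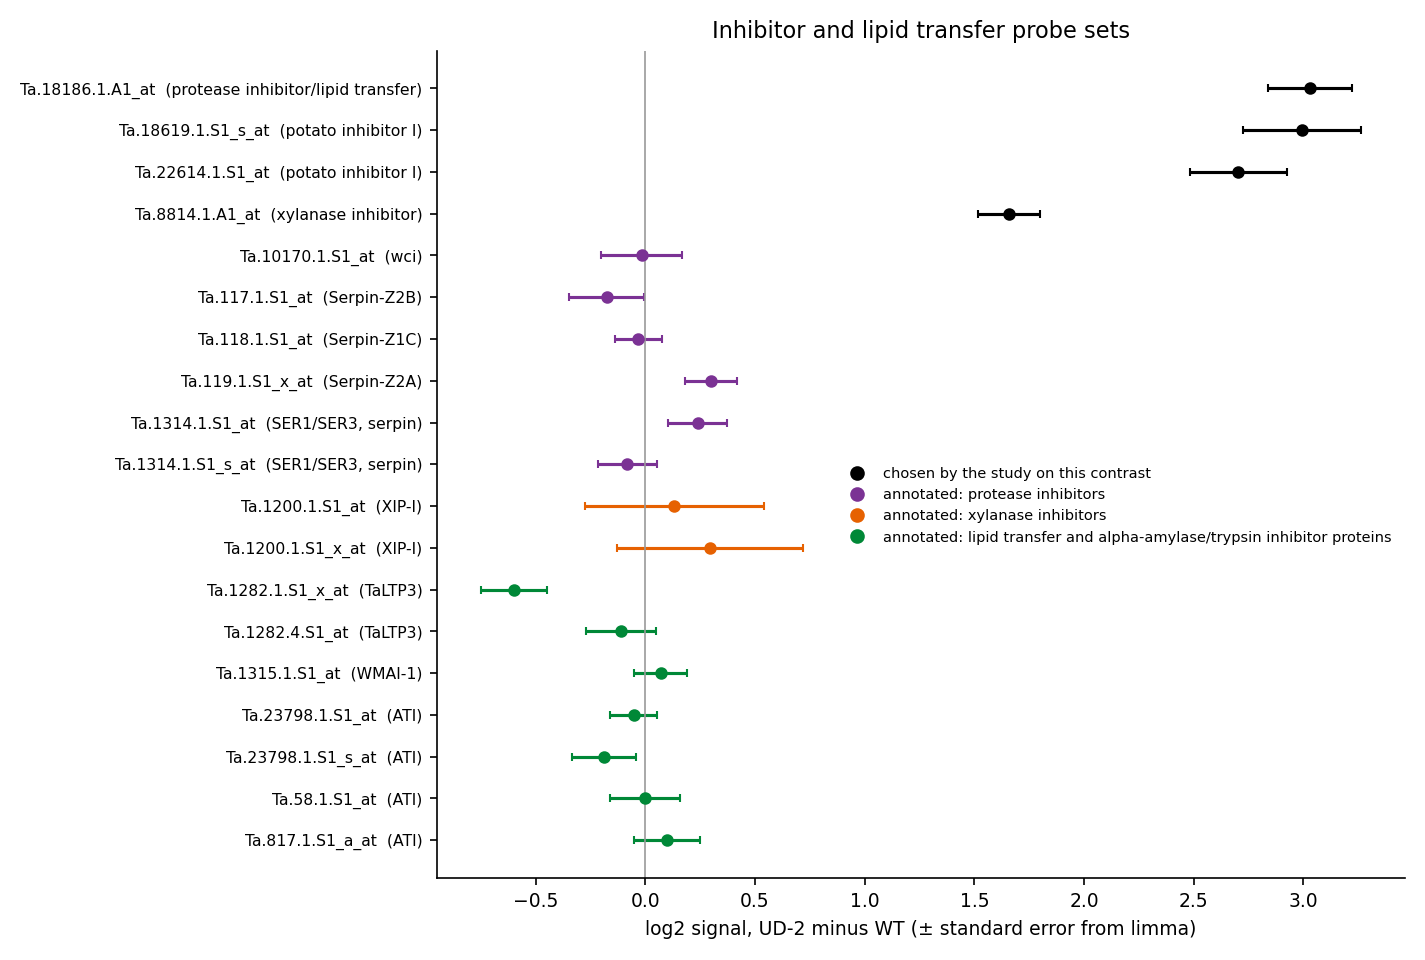
Log2 signal in UD-2 minus WT (horizontal axis, bars are the standard error from limma) for the 4 probe sets that the study listed, in black, and for 15 annotated inhibitor and lipid transfer probe sets, in colour. The black points lie between 1.66 and 3.03 and the coloured ones between −0.60 and 0.30.

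Genes of the wider defence response were few in the annotation, with 6 probe sets of 4 genes. None was called by limma, with 1 at an unadjusted p under 0.05 and 0 called with Benjamini-Hochberg adjustment, and 5 of the 6, all for purothionins, were under background on every array. With 0.430% called higher and 0.281% lower over the whole table, 0 of 6 is near that background. The sixth, Ta.24501.1.S1_at for the thaumatin-like PR5, read 11.93 and 11.37 in the UD-2 pools, against 12.54 and 12.23 in the WT pools, a log2 difference of −0.74 (adjusted p = 0.144 from limma). No probe set was annotated as a protease or as a xylanase by the words searched, so that the enzymes these inhibitors act on were not measured through this annotation.

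The profiles nearest to those of the 3 members were sought among all probe sets that are neither members nor controls. The measure was the Euclidean distance between the 4 log2 signals, each centred on its mean. Nearest to Ta.18186.1.A1_at were Ta.1623.1.S1_at (distance 0.18), TaAffx.7104.1.S1_at (0.26) and Ta.27882.1.S1_x_at (0.30). The first is matched to a serine/arginine repetitive matrix protein and the second to the RPC8 subunit of RNA polymerase III. Ta.1623.1.S1_at read 7.40 and 6.81 in the UD-2 pools, against 3.88 and 3.98 in the WT pools.

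With the members left out, the second potato inhibitor I probe set was the third nearest to Ta.18619.1.S1_s_at, at a distance of 0.36. Ahead of it came Ta.13965.1.S1_at (0.30), matched to an F-box protein, and TaAffx.79037.1.S1_at (0.32), which has no description in the sources used here. Again with the members left out, it ranked 7 among the profiles near Ta.18186.1.A1_at, at 0.36. Among those near Ta.8814.1.A1_at it ranked 1379, at 1.07. Ta.18186.1.A1_at and Ta.18619.1.S1_s_at were themselves 0.35 apart, and they were 1.38 and 1.39 from Ta.8814.1.A1_at.

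Nearest to Ta.8814.1.A1_at were TaAffx.84357.2.A1_at (0.19), Ta.2929.2.S1_at (0.20) and TaAffx.83002.1.S1_s_at (0.20). The cluster of Ta.2929.2.S1_at is matched to deoxyuridine triphosphate nucleotidohydrolase, an enzyme that keeps uracil out of DNA. That probe set read 6.30 and 6.03 in the UD-2 pools, against 4.52 and 4.69 in the WT pools. With 4 arrays, a short distance mostly says that the size of the difference between the lines is alike, and it is given as a description.

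**Figure D4:**
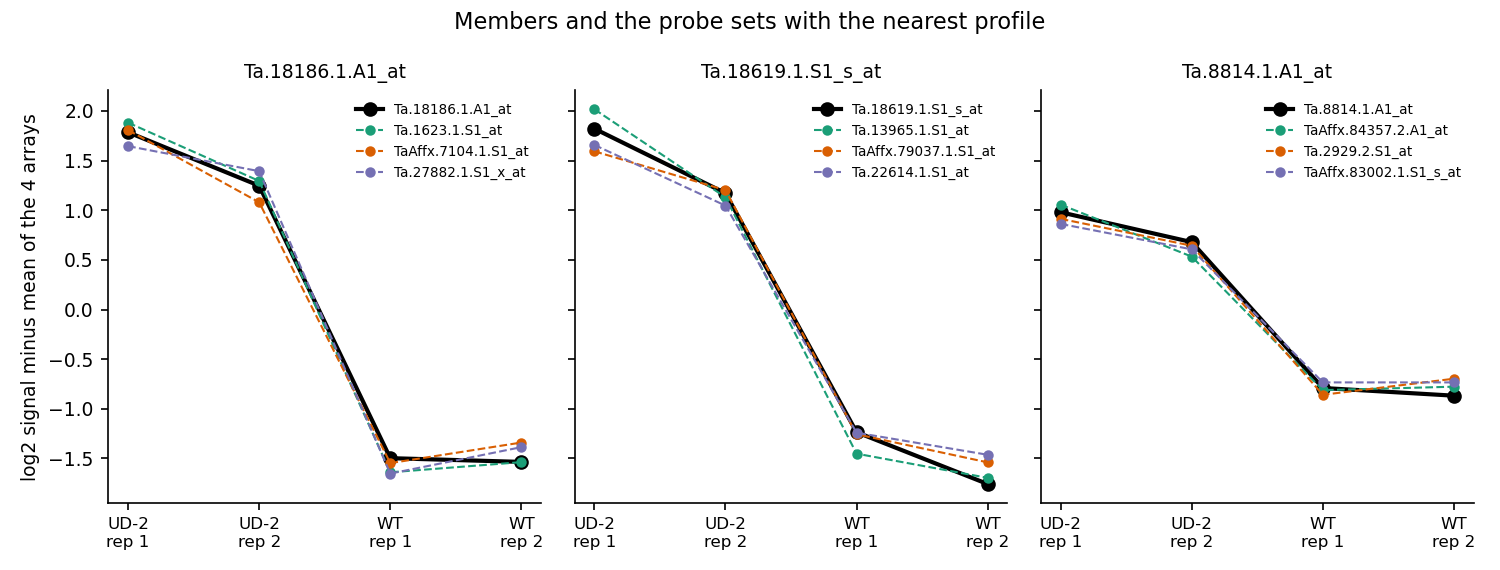
Log2 signal minus the mean of the 4 arrays (vertical axis) in each pool, for each member in black and for its 3 nearest probe sets in colour. Lines only join the points of 1 probe set, and in each panel both UD-2 points lie above 0 and both WT points below it.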

How the data were processed

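The authors background corrected, normalized and summarised the arrays by the RMA function of the package Affy and deposited log2 values, 1 for each probe set and array. The processing notes name R 3.1.1 and limma, and no version of Affy was found in the sources read. After the 175 control probe sets were left out, UD-2 and WT were compared over 61115 probe sets with limma 3.58.1 (lmFit, then eBayes; R 4.3.3), without covariates. P-values were adjusted over all of them by the Storey and Tibshirani method (threshold 0.05, estimated share unchanged 0.708), as in the study's methods. The fit was tested on simulated data. The p-values set the lines against the spread between pools, which eBayes draws toward the spread over all probe sets (prior degrees of freedom 3.67, against 2 residual). Standard errors and intervals rest on the same moderated spread. Precision is limited by having 2 arrays a line. Tables were made with Python 3.11.15 and pandas 2.3.3.

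The members and lists were chosen with earlier results of these data known, and the lists' search words were completed once the annotation's symbols had been read. Named were all probe sets of the 3 clusters, the second potato inhibitor I probe set of the study's list and the 3 nearest profiles. Of each inhibitor and lipid transfer list, where none was called, up to 3 of the brightest were named. Of the leaf, grain and defence lists, the brightest alone was named. Of 1273 annotated probe sets, 1272 matched a RefSeq gene ID. Descriptions of the members are of rice and Arabidopsis matches given by the study. No target sequences were used here.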

Additional observations from a re-analysis of the deposited data

How the results depend on the processing

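The 3 members and the second potato inhibitor I probe set stayed higher in UD-2 under every alternative run. They were chosen on this contrast, so that neither this nor a call by limma supports their difference. With 1 array left out, 0 members and 0 probe sets in all were called, in either direction, and the log2 differences ran from 2.76 to 3.30 for Ta.18186.1.A1_at, from 2.67 to 3.32 for Ta.18619.1.S1_s_at, from 1.51 to 1.81 for Ta.8814.1.A1_at and from 2.40 to 3.01 for the second potato inhibitor I probe set. Such fits have 1 residual degree of freedom in place of 2. The labels number the replicates of both lines, but same-numbered arrays did not deviate together over the table (correlation −0.09 across probe sets). On all 3 members replicate 1 was the higher pool in both lines, which was so for 21.9% of all probe sets. On Ta.18186.1.A1_at and Ta.8814.1.A1_at, however, the WT pools were only 0.04 and 0.08 apart and below background. Whether same-numbered arrays share a batch was not tested. With a replicate block, 1 member was called, Ta.18619.1.S1_s_at. The differences of Ta.18186.1.A1_at at 3.03, Ta.8814.1.A1_at at 1.66 and the second potato inhibitor I probe set at 2.70 did not pass. The block fit, too, has 1 residual degree of freedom in place of 2. Its standard errors for Ta.18186.1.A1_at, Ta.18619.1.S1_s_at and Ta.8814.1.A1_at were 0.17, 0.11 and 0.12, against 0.19, 0.27 and 0.14 without the block. Over the table, the replicate block left 16 probe sets higher and 11 lower, in place of 263 and 172.

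The counts over all probe sets were 142 higher and 98 lower with Benjamini-Hochberg adjustment, 512 and 325 with robust eBayes, 779 and 491 without probe sets under background on all arrays, 400 and 285 after quantile normalization, 797 and 319 after array median centring, and 376 and 279 after cyclic loess. Median centring moved the share of lower calls to 28.6%, in place of 39.5%. The cause was not tested. Against the brightest Bacillus control in place of the 95th percentile, the fold was at least 3.51 for Ta.18186.1.A1_at and at least 2.25 for Ta.8814.1.A1_at. The WT signals lay above the median control, and with that as the background the fold of Ta.18186.1.A1_at is the plain ratio of 8.18, not a bound.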

Other observations

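Some of these inhibitor families act on proteases, and whether any protease named below is a target of a member was not tested. The study's lists of changed transcripts hold 10 probe sets whose descriptions name a protease or peptidase and not an inhibitor. They were looked up after the values had been seen and were chosen by the study on the same contrast, so that their signals are a description. On 2 of the 10 both UD-2 pools lay above both WT pools, and on 8 both lay below, which was so for 22.2% and 25.9% of all probe sets. The lower ones include Ta.23348.1.A1_at and Ta.23348.1.A1_x_at, which are of 1 cluster. The higher ones were TaAffx.122846.3.S1_s_at, matched to a serine carboxypeptidase, which trims proteins from the carboxyl end, and Ta.26911.1.S1_at, of the M48 family of metallopeptidases. The UD-2 pools read 7.28 and 6.81 on TaAffx.122846.3.S1_s_at and the WT pools 5.15 and 5.19. On Ta.26911.1.S1_at, the UD-2 pools read 12.25 and 11.89 and the WT pools 9.95 and 10.08. Of the lower ones, 5 are matched in rice to aspartic proteinases of the nepenthesin kind. Ta.611.1.A1_at, matched to a cysteine protease that acts on ubiquitin-like proteins, read 2.39 and 2.57 in the UD-2 pools, both under background, and 10.03 and 10.71 in the WT pools. Another was Ta.22359.1.S1_at, matched to a serine-type endopeptidase, on which the UD-2 pools read 4.95 and 4.57 and the WT pools 6.73 and 6.69. UD-2 replicate 1 was the higher UD-2 pool on 6 of the 10, with both of the higher proteases among them. It was so on all 3 of the inhibitor and lipid transfer members. Over all probe sets the share was 48.9%, and among those called higher it was 74.9%.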
